A study of Homo sapiens with 4 samples.

Results

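Messenger RNA levels of 10 genes of the Wnt signalling pathway were examined in 2 breast cancer cell lines with and without depletion of hnRNPM. The genes were the ligands WNT5A, WNT5B and WNT7B, the secreted proteins DKK1 and DKK3, the receptors FZD2, FZD6 and FZD7, the co-receptor LRP6 and the feedback gene AXIN2. They were taken by gene name, and all 10 were among the 20329 genes analysed. The lines were MDA-MB-231 BM1 (1833) and MDA-MB-231 LM2 (4175), described in the labels as bone and lung metastasis derivatives of a triple-negative breast cancer line. Cells of each line that carried a non-specific shRNA gave 1 control library, and cells that carried an shRNA against hnRNPM, a protein that binds RNA and acts in splicing, gave 1 knockdown library. In all 4 cultures the shRNA was brought in by lentivirus and stably expressed. Each pair of values for a line below gives the control first and the knockdown second.

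Wnt ligands are secreted, lipid-modified proteins that bind Frizzled receptors. Together with the co-receptors LRP5 and LRP6 they stop the degradation of beta-catenin, which then acts with TCF and LEF factors on target genes. WNT5A and WNT5B are best known for signalling that does not use beta-catenin, through receptors such as ROR1 and ROR2. DKK1 binds LRP5 and LRP6 and blocks the beta-catenin branch, and both DKK1 and AXIN2 are known targets of that branch that feed back on it. MDA-MB-231 cells are known for high DKK1 secretion, and secreted DKK1 is known to affect bone cells.

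DKK1 was the member with the highest level, and sequence before its start site carries letters that TCF and LEF factors are known to bind. The RefSeq promoter table (GRCh38.p14, 250 bases before to 50 after each start) held DKK1, WNT5A and WNT5B, with 5 start sites in all. TCF/LEF letters were searched on both strands as CTTTGAA or the variant CTTTGAT, and further as CTTTGTA or the variant CTTTGTT. DKK1 held 2 matches, at positions -95 and -76 from the start, and the windows of WNT5A and WNT5B held 0. Of all 35116 promoters 13.8% held a match. The stretch from position -120 to -51 of DKK1 (GRCh38.p14, chr10:52314161-52314230, plus strand) is shown because it holds both matches, which are in capitals:
DKK1: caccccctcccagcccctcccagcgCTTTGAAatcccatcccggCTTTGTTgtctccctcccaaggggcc
Both matches read in the direction of the gene. The same windows were searched for the GC box (GGGCGG, both strands), which 3 of 5 windows and 45.0% of all promoters held. The E box (CACGTG) and AP-1 letters (TGACTCA or its reverse complement TGAGTCA) were in 0 of 5 windows, against 7.26% and 4.95% of all promoters. A match describes letters only, and no binding was measured here.

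The values are FPKM, fragments divided by gene model length and by library size, so levels of different genes can be compared per length. Read from steps in the low values, the BM1 pair had about 31227735 and 22768078 fragments and the LM2 pair about 41483952 and 27241988. HNRNPM fell to 16.6% of its control level in BM1 and to 15.4% in LM2 (limma adjusted p 0.0032). The mesenchymal gene VIM was at 1160 to 2354 FPKM and CD44 at 155 to 223 FPKM. Of the genes that triple-negative cells should lack or hold at low levels, ESR1 and PGR had no entry among the genes analysed. ERBB2 was at 13.5 to 21.9 FPKM. The epithelial gene CDH1 was at 0.489 and 4.08 FPKM in the BM1 pair and 0.170 and 2.30 FPKM in the LM2 pair. Of 4 markers of other cell types, PTPRC, PECAM1 and ALB had no entry. The fourth, the collagen gene COL1A1, was at 1.94 and 11.1 FPKM in the BM1 pair and 29.2 and 74.2 FPKM in the LM2 pair. Its part in the results was not tested. Differences are given as log2(FPKM + 1), which understates the change of low genes.

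The 10 genes spanned a wide range of levels. DKK1 was at 131 to 285 FPKM. FZD2 and FZD6 were between 12.5 and 35.7 FPKM, LRP6 between 5.38 and 18.0 FPKM and FZD7 between 4.76 and 9.25 FPKM. The ligands WNT5B and WNT7B were between 2.91 and 8.50 FPKM. WNT5A, DKK3 and AXIN2 were the lowest, between 0.819 and 3.20 FPKM. In WNT5A, 0.903 FPKM in the BM1 control stands for about 28.2 fragments per kilobase at the depth above. All 10 genes had a mean of at least 1 FPKM, the level above which genes were tested.

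**Figure D1:**
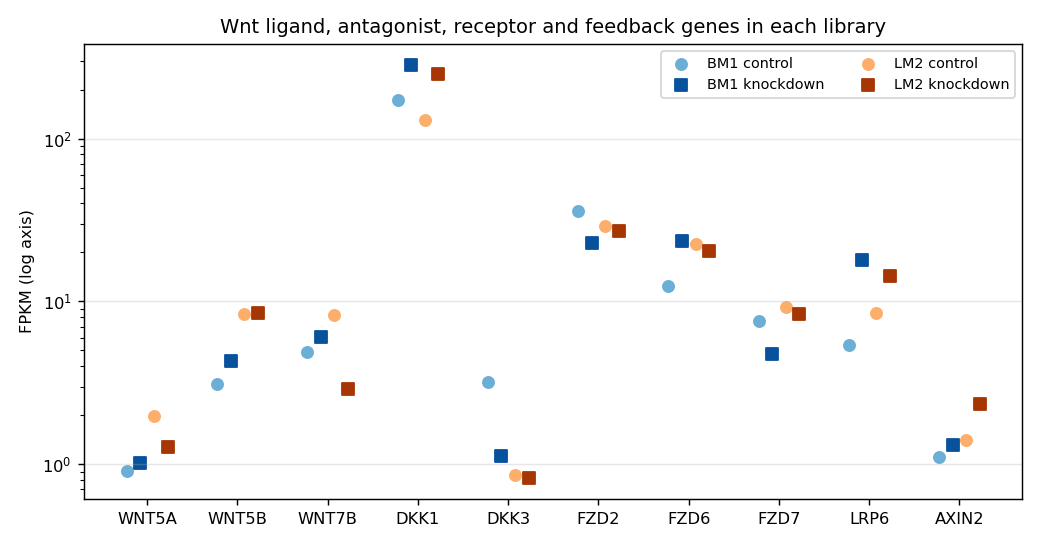
FPKM (log axis) of the 10 genes in the 4 libraries, 1 point per library, circles for controls and squares for knockdowns. DKK1 lies above 130 FPKM in every library, and both knockdown points of DKK1 and LRP6 lie above both of their control points.

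The first comparison asked how hnRNPM depletion changed these genes. None of the 10 passed the test over both lines at an adjusted p of 0.05 (limma, 13928 genes tested, terms for treatment and line), where 5.47% of all tested genes did (2.71% higher and 2.76% lower). At an unadjusted p under 0.05 there were 2, LRP6 and DKK1, both higher in the knockdown libraries, against 24.9% of all tested genes. The median change of the 10 genes was 0.02, and that of all tested genes was -0.0083. In 3 of the 10 genes, DKK1, LRP6 and FZD2, the 2 knockdown libraries did not overlap with the 2 controls, against 44.4% of all tested genes (21.8% higher and 22.6% lower). The shares of members that passed or did not overlap were therefore not above the background. The test has 1 residual degree of freedom, and each line and treatment has 1 library.

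DKK1 (ENSG00000107984.9, chromosome 10, 54074056 to 54077802, plus strand, GRCh37 as named in the submitters' processing notes) encodes the antagonist of LRP5 and LRP6. It was at 174 FPKM in the BM1 control and 285 FPKM in the BM1 knockdown library. In LM2 it was at 131 FPKM in the control and 250 FPKM in the knockdown library. Both knockdown libraries were above both controls, by 1.64 times in BM1 and 1.91 times in LM2. Over both lines the difference was 0.82 ± 0.25 (log2, standard error, limma adjusted p 0.095), which did not pass. The BM1 and LM2 differences, 0.71 and 0.93, were within 0.22 of each other.

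DKK3 (ENSG00000050165.17, chromosome 11, 11984653 to 12031316, minus strand) belongs to the same family by sequence but is not known as a typical antagonist of LRP5 and LRP6. It was at 3.20 FPKM in the BM1 control and 1.12 FPKM in the BM1 knockdown library. The LM2 libraries were at 0.856 and 0.819 FPKM. The BM1 control thus stood above the other 3 libraries, and the BM1 knockdown level was 35.0% of its control, a difference of -0.99 on the log2(FPKM + 1) scale, and the LM2 difference was -0.03. Over both lines it was -0.51 ± 0.30 (limma adjusted p 0.33). Without the BM1 control the difference was 0.08, in a fit without the term for line. Part of the line difference enters that value, so it does not show how far the result rests on the BM1 control.

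LRP6 (ENSG00000070018.8, chromosome 12, 12268959 to 12419946, minus strand), the co-receptor, had the largest difference of the 10 genes. It was at 5.38 FPKM in the BM1 control and 18.0 FPKM in the BM1 knockdown library, 3.35 times higher. In LM2 it was at 8.47 and 14.2 FPKM, 1.68 times higher. Both knockdown libraries lay above both controls, and the difference over both lines was 1.13 ± 0.29 (limma adjusted p 0.060). Its paralog LRP5, which serves in the same receptor complex, was at 22.9 and 26.0 FPKM in the BM1 pair and 24.5 and 24.0 FPKM in the LM2 pair (difference 0.07 ± 0.25, limma adjusted p 0.88). The ratio of LRP6 to LRP5 levels per length was 0.235 in the BM1 control and 0.692 in the BM1 knockdown library, and 0.345 and 0.592 in LM2.

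Of the 3 Frizzled receptors among the 10 genes, FZD6 (ENSG00000164930.11, chromosome 8, 104310661 to 104345094, plus strand) differed most within a line. It is mostly known for signalling outside the beta-catenin branch and for cell polarity. FZD6 was at 12.5 FPKM in the BM1 control and at 23.6 FPKM in its knockdown library. The LM2 levels were 22.6 and 20.5 FPKM. The BM1 control was the low library and the other 3 were close together, so the difference was 0.86 in BM1 and -0.14 in LM2 (both lines together 0.36 ± 0.30, limma adjusted p 0.50). Without the BM1 control it was -0.04, in a fit without the term for line. That value takes in part of the line difference, so it does not measure how stable the knockdown difference is.

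FZD2 (ENSG00000180340.6, chromosome 17, 42634827 to 42636938, plus strand) and FZD7 (ENSG00000155760.2, chromosome 2, 202899310 to 202903168, plus strand) are closely related receptors. FZD2 was at 35.7 and 22.9 FPKM in the BM1 pair and 29.1 and 27.0 FPKM in the LM2 pair. FZD7 was at 7.62 and 4.76 FPKM in the BM1 pair and 9.25 and 8.32 FPKM in the LM2 pair. Both genes were lower in the knockdown library of each line. The BM1 differences of FZD2 and FZD7 were -0.62 and -0.58, and the LM2 differences were -0.10 and -0.14. Over both lines the differences were -0.36 ± 0.27 and -0.36 ± 0.26 (limma adjusted p 0.43 for each). The FZD2 level was 4.69 and 4.81 times the FZD7 level in the BM1 libraries and 3.15 and 3.25 times in the LM2 libraries, so within a line the pair kept nearly the same ratio.

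The ligand WNT7B (ENSG00000188064.9, chromosome 22, 46316242 to 46373009, minus strand), which can act through beta-catenin, was at 4.91 FPKM in the BM1 control and 6.07 FPKM in the BM1 knockdown library. In LM2 it was at 8.21 FPKM in the control and 2.91 FPKM in the knockdown library. The LM2 control was the highest and the LM2 knockdown the lowest of the 4 libraries. The difference was 0.26 in BM1 and -1.24 in LM2 (both lines together -0.49 ± 0.36, limma adjusted p 0.43).

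WNT5A (ENSG00000114251.13, chromosome 3, 55499743 to 55524567, minus strand) was at 0.903 and 1.01 FPKM in the BM1 pair and 1.96 and 1.27 FPKM in the LM2 pair. Its close relative WNT5B (ENSG00000111186.12, chromosome 12, 1639057 to 1756409, plus strand) was at 3.09 and 4.28 FPKM in the BM1 pair and 8.35 and 8.50 FPKM in the LM2 pair. The knockdown differences over both lines were -0.15 ± 0.26 for WNT5A and 0.19 ± 0.26 for WNT5B (limma adjusted p 0.76 and 0.68). WNT5B was the more abundant of the pair in each library, by 3.42 to 6.69 times. WNT5A, WNT5B and FZD6 overlap the listed genes WNT5A-AS1, FBXL14 and BAALC-AS1 on the opposite strand. The sources used here do not say whether counting used strand, so reads of these overlapping genes may not be told apart.

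AXIN2 (ENSG00000168646.12, chromosome 17, 63524681 to 63557765, minus strand) is a part of the complex that degrades beta-catenin and a widely used readout of that branch. It was at 1.11 and 1.31 FPKM in the BM1 pair and 1.41 and 2.33 FPKM in the LM2 pair. The LM2 knockdown library was the highest, and the BM1 knockdown library lay below the LM2 control, so the groups overlapped. The difference was 0.13 in BM1, 0.46 in LM2 and 0.30 ± 0.26 over both lines (limma adjusted p 0.51). Without the LM2 knockdown library it was 0.037, and without the BM1 knockdown library 0.56, in fits without the term for line. These fits mix part of the line difference into the value, so they do not measure how stable it is.

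**Figure D2:**
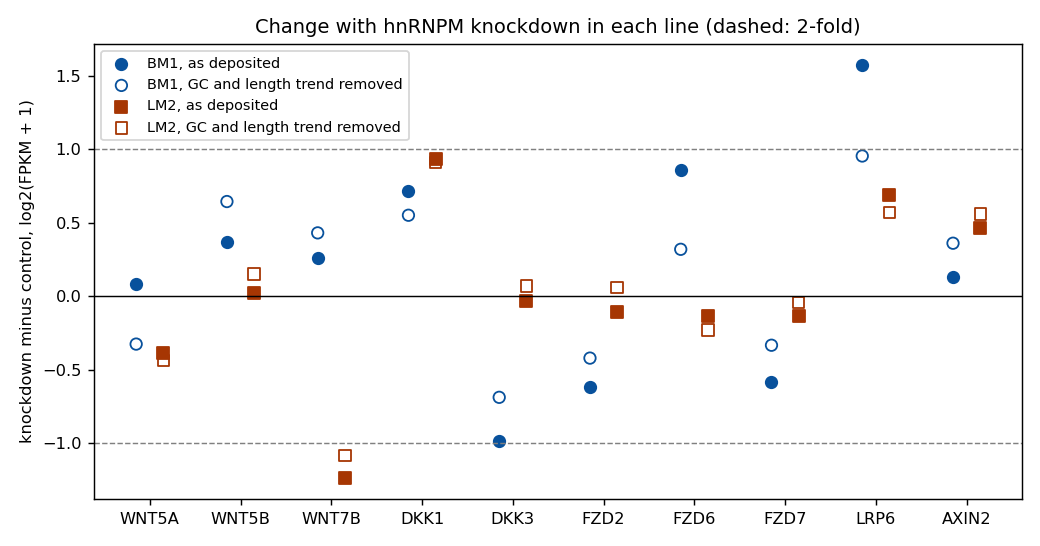
Knockdown minus control on the log2(FPKM + 1) scale for each gene in BM1 (circles) and LM2 (squares). Filled points are the values as deposited and open points the values after a trend with GC content and transcript length was removed. LRP6 in BM1 (1.57) and WNT7B in LM2 (-1.24) are the filled points beyond the dashed lines at 2-fold on that scale.

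Within a line, where 1 library per arm gives no test, a size of at least 2-fold was used as the rule. It was applied to FPKM + 1, so a low gene can differ by more than 2-fold in plain FPKM and not meet it. DKK3 in BM1, at 35.0% of its control level, was such a case. In BM1 1 of 10 genes, LRP6, was that much higher (16.3% of all tested genes differed by 2-fold, 10.1% upwards). In LM2 1 of 10, WNT7B, was that much lower (8.06% of all tested genes, 4.24% downwards). In BM1 7 of the 10 genes were higher in the knockdown library (50.3% of all tested genes) and in LM2 4 were (46.5%), with medians of 0.20 and -0.07 (0.0047 and -0.04 over all tested genes). DKK1, LRP6, WNT5B and AXIN2 were higher in the knockdown library of both lines, and DKK3, FZD2 and FZD7 were lower in both. WNT5A, WNT7B and FZD6 had opposite signs, 3 of 10 against 30.9% of all tested genes.

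The change in BM1 moved with the base composition of the transcripts. Over the 13723 tested genes with a GENCODE 29 transcript, the 2745 genes with the lowest GC content of the longest transcript (up to 41.0%) had a median BM1 difference of 0.59, and the 2745 with the highest GC content (from 57.8%) had -0.23. In LM2 the corresponding medians were 0.09 and -0.18. The 2745 genes with the longest transcripts had medians of 0.26 in BM1 and 0.04 in LM2, and the 2748 with the shortest -0.17 and -0.09. LRP6 has a long transcript of low GC content (10020 bases, 40.2%), at the 96.6th percentile of length and the 16.7th of GC content. FZD6 (38.4% GC) was at the 9.36th percentile of GC content. When the trend with both properties was removed, an alternative added after the data were seen, the BM1 difference of LRP6 was 0.95 in place of 1.57 and that of FZD6 0.32 in place of 0.86. The LM2 difference of LRP6 was 0.57 in place of 0.69. Its difference over both lines was 0.76 (limma adjusted p 0.11, against 0.059 to 0.38 over the alternatives that kept all libraries). DKK1 was less affected, at 0.55 in BM1 and 0.91 in LM2. For the lines together it was 0.73 (limma adjusted p 0.12, against 0.10 to 0.42 over the alternatives that kept all libraries). The BM1 difference of WNT5A turned from 0.08 to -0.33, so that both lines were lower, and the LM2 differences of DKK3 and FZD2 turned to 0.07 and 0.06.

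**Figure D3:**
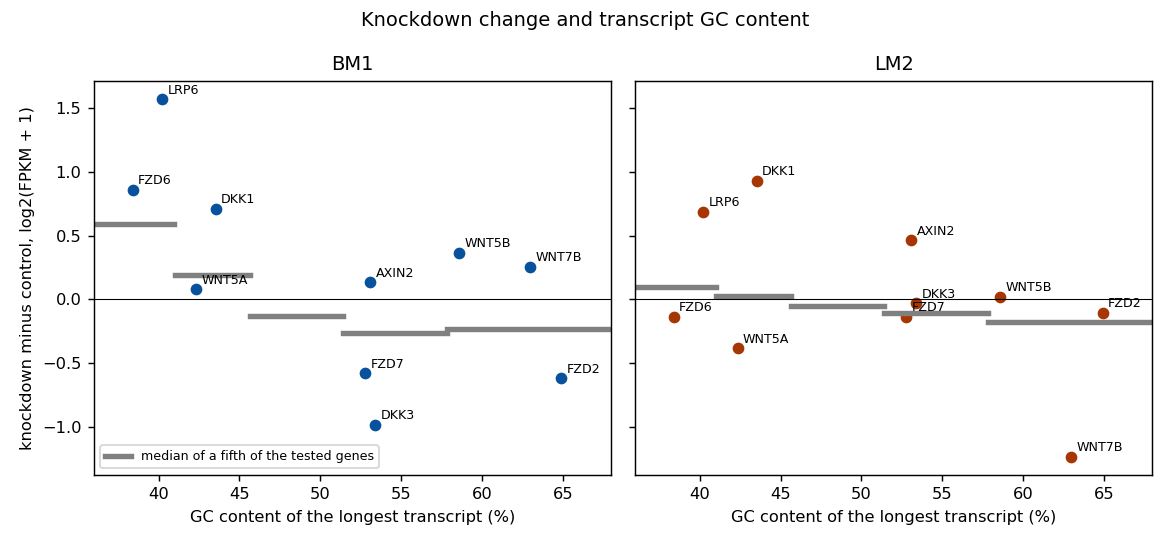
Knockdown minus control on the log2(FPKM + 1) scale against the GC content of the longest transcript, for BM1 (left) and LM2 (right). Points are the 10 genes, and grey bars are medians of the tested genes in 5 classes of GC content of about equal size, drawn within the range shown. The bars go from 0.59 to -0.23 in BM1 and from 0.09 to -0.18 in LM2, and LRP6 and FZD6 lie at the low end of GC content.

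The second comparison was between the lines. None of the 10 genes passed the test for LM2 minus BM1 over both treatments (limma, 4.35% of all tested genes passed, 2.31% higher and 2.04% lower in LM2). At an unadjusted p under 0.05 there were 2, WNT5B and DKK3 (22.4% of all tested genes). The LM2 and BM1 libraries did not overlap for 5 of the 10 genes, against 41.0% of all tested genes. Of these 5, WNT5A, WNT5B, FZD7 and AXIN2 were higher in both LM2 libraries (19.4% of all tested genes) and DKK3 was lower (21.6%). The median of the 10 genes was 0.22, and that of all tested genes -0.0090.

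WNT5B was the member with the largest difference, 1.02 ± 0.26 higher in LM2 (limma adjusted p 0.063). Between controls LM2 was at 2.70 times the BM1 level and between knockdowns at 1.99 times. WNT5A differed in the same direction by 0.41 ± 0.26 (limma adjusted p 0.40), at 2.17 times between controls and 1.26 times between knockdowns. Their neighbours on the opposite strand were also higher in LM2. FBXL14, which overlaps WNT5B, was at 3.31 and 3.15 FPKM in the BM1 pair and 7.02 and 4.42 FPKM in the LM2 pair. WNT5A-AS1 was at 0.282 and 0.255 FPKM in the BM1 pair and 1.29 and 0.465 FPKM in the LM2 pair. The part of these neighbours in the differences was not tested. The summed level of the 8 WNT genes with an entry among those analysed was 12.0 and 18.3 FPKM in the BM1 pair and 24.4 and 23.8 FPKM in the LM2 pair. WNT7B was the most abundant of them in both BM1 libraries and WNT5B in both LM2 libraries.

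DKK3 was lower in LM2, with a difference of -0.70 ± 0.30 (limma adjusted p 0.21). Without the BM1 control it was -0.21, and without the BM1 knockdown library -1.19, in fits without the term for treatment. Part of the knockdown difference enters these values, so they do not measure how stable the line difference is. Its BM1 control level was 3.74 times the LM2 control level, and its BM1 knockdown level 1.37 times the LM2 knockdown level. DKK1 was lower in the LM2 library at both treatments, with a difference of -0.30 ± 0.25 (limma adjusted p 0.53). DKK1 exceeded DKK3 per length by 54.2 to 305 times in the 4 libraries. FZD7 and AXIN2 were higher in LM2 by 0.47 ± 0.26 and 0.36 ± 0.26 (limma adjusted p 0.33 and 0.45).

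For 4 genes the difference between lines had opposite signs in control and knockdown libraries, against 33.5% of all tested genes. FZD6 was 0.80 higher in LM2 between controls and -0.19 between knockdowns. LRP6 was at 0.57 and -0.32, WNT7B at 0.64 and -0.86, and FZD2 at -0.29 and 0.23. By the 2-fold rule 2 genes differed between controls, WNT5B (1.19) and DKK3 (-1.18), where 12.2% of all tested genes did (6.98% higher and 5.26% lower in LM2). WNT5A, at 2.17 times in plain FPKM, did not meet the rule on FPKM + 1, and with a pseudocount of 0.1 the count was 3. Between knockdowns 0 did, where 9.04% of all tested genes did, with WNT7B (-0.86) and WNT5B (0.85) the nearest. In plain FPKM the WNT7B level of the BM1 knockdown library was 2.09 times that of the LM2 knockdown library, and with a pseudocount of 0.1 the count was 1.

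**Figure D4:**
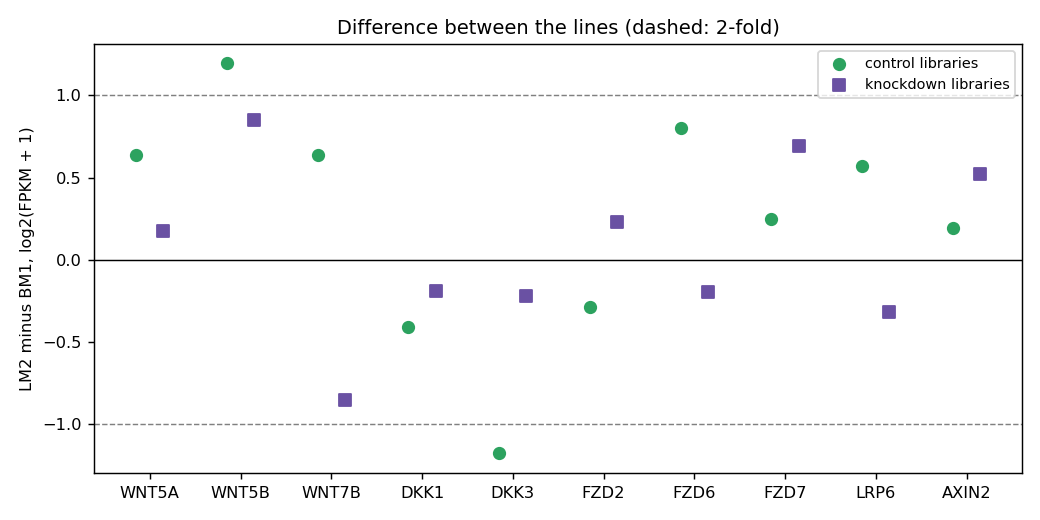
LM2 minus BM1 on the log2(FPKM + 1) scale for each gene, for control libraries (circles) and knockdown libraries (squares), with dashed lines at 2-fold on that scale. WNT5B (1.19) and DKK3 (-1.18) lie beyond the lines between controls, and no gene does between knockdowns.

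The wider pathway was described from a list of 86 other genes, of which 54 had an entry and 40 were tested. In the knockdown libraries 3 were called higher (MYC, DAAM1 and ROR1) and 2 lower (PTK7 and FZD8), 5 of 40 against 5.47% of all tested genes. At an unadjusted p under 0.05 there were 13 of the 40, against 24.9% of all tested genes. The median of the 40 genes was 0.22, and that of all tested genes -0.0083. The list was chosen with earlier results of these data known, so these counts and the median cannot show an excess in the pathway. All 5 calls were lost without the pairing by line, where 0 of all tested genes were called. Fits with 1 library left out also drop the pairing and leave 1 library in a group, so they cannot show whether a call holds. The cause of the loss was not tested.

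Of the called genes, 3 encode receptors. ROR1, a receptor of WNT5A, rose from 5.60 to 17.1 FPKM in the BM1 pair and from 3.06 to 8.78 FPKM in the LM2 pair (1.36 ± 0.25, limma adjusted p 0.023). PTK7, a receptor-like protein of the polarity branch, fell from 39.8 to 12.6 FPKM in the BM1 pair and from 20.2 to 5.55 FPKM in the LM2 pair (-1.64 ± 0.25, limma adjusted p 0.014). FZD8, another Frizzled receptor, fell from 4.12 to 1.41 FPKM in the BM1 pair and from 5.17 to 1.15 FPKM in the LM2 pair (-1.30 ± 0.26, limma adjusted p 0.029). Each of these genes had both knockdown libraries on the same side of both controls. After removal of the GC and length trend the limma adjusted p of FZD8 was 0.051, and those of ROR1 and PTK7 were 0.041 and 0.030. Without the pairing by line the limma adjusted p was 0.29 for FZD8, 0.38 for ROR1 and 0.38 for PTK7, a setting in which no tested gene passed.

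The other called genes act inside the cell. DAAM1, a formin that links Dishevelled to the actin cytoskeleton, rose from 3.20 to 14.5 FPKM in the BM1 pair and from 2.37 to 12.1 FPKM in the LM2 pair (1.92 ± 0.25, limma adjusted p 0.0097). Its transcript has a low GC content (39.3%). With the GC and length trend removed, DAAM1 differed by 1.29 in place of 1.88 in BM1 and 1.87 in place of 1.96 in LM2. Over both lines its limma adjusted p was then 0.033, and without the pairing by line 0.25. MYC, a known target of beta-catenin and of many other inputs, rose from 2.60 to 22.2 FPKM in the BM1 pair and from 1.53 to 18.8 FPKM in the LM2 pair (2.83 ± 0.26, limma adjusted p 0.0030). MYC alone kept its call with a pseudocount of 0.1, a setting with 27 calls over all tested genes against 762 in the main fit.

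Other parts of the pathway gave no calls in the knockdown comparison. None of the 11 genes of Dishevelled and the destruction complex passed, with a median of 0.22. APC, the scaffold of that complex, differed by 0.60 ± 0.31 and its kinase gene CSNK1A1 by 0.57 ± 0.25 (limma adjusted p 0.27 and 0.20). Both have a low GC content (39.6% and 39.4%). With the GC and length trend removed, APC was at 0.45 in BM1 and -0.05 in LM2, and CSNK1A1 at -0.04 and 0.49. GSK3A, another kinase gene of the complex, differed by -0.48 ± 0.26 (limma adjusted p 0.28). CTNNB1, which encodes beta-catenin and was added outside the naming rule with its values seen, was at 110 and 176 FPKM in the BM1 pair and 168 and 182 FPKM in the LM2 pair. None of the 6 tested nuclear factors passed. LEF1, a partner of beta-catenin, differed by -0.85 ± 0.26 and its co-activator BCL9L by 0.84 ± 0.25 (limma adjusted p 0.090 and 0.092). On the opposite strand LEF1 overlaps LEF1-AS1 and BCL9L overlaps CXCR5. LEF1-AS1 was, like LEF1, lower in the knockdown library of each line. It was at 0.518 and 0.222 FPKM in the BM1 pair and 1.10 and 0.414 FPKM in the LM2 pair. CXCR5 was at 7.26 and 9.98 FPKM in the BM1 pair and 8.16 and 14.1 FPKM in the LM2 pair. CSNK1A1 and CTNNB1, and PRICKLE1, WLS and CCND1 named below, also overlap other entries. The part of these neighbours in the values was not tested. PYGO1, which binds BCL9 proteins, differed by 0.57 ± 0.25 (limma adjusted p 0.20). Its GC content of 34.6% is at the 1.29th percentile. With the GC and length trend removed, PYGO1 turned from 0.63 to -0.22 in BM1 and was at 0.36 in place of 0.51 in LM2. LGR4, a receptor for R-spondins, was at 4.39 and 15.2 FPKM in the BM1 pair and 12.1 and 14.7 FPKM in the LM2 pair (0.92 ± 0.34, limma adjusted p 0.14). Like FZD6, LGR4 was lowest in the BM1 control. ZNRF3, a ubiquitin ligase that removes Frizzled receptors, differed by -0.03 ± 0.26 (limma adjusted p 0.96).

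The polarity genes PRICKLE1 and CELSR1 differed by 0.71 ± 0.25 and -0.65 ± 0.28 (limma adjusted p 0.13 and 0.20). CELSR1 was at 2.29 and 1.74 FPKM in the BM1 pair and 5.20 and 2.01 FPKM in the LM2 pair, so its LM2 control stood above the other 3 libraries. The ligands WNT9A and WNT3 differed by 0.81 ± 0.25 and 0.46 ± 0.25 (limma adjusted p 0.098 and 0.30). WLS, which carries ligands to the cell surface, and PORCN, which attaches their lipid, differed by -0.35 ± 0.25 and -0.26 ± 0.26 (limma adjusted p 0.42 and 0.58). The cell cycle gene CCND1, a known target, differed by -0.29 ± 0.26 (limma adjusted p 0.53). Between the lines 1 of the 40 genes was called, WNT9A, a ligand, which was higher in LM2 (0.463 and 1.82 FPKM in BM1, 2.49 and 4.59 FPKM in LM2, 1.12 ± 0.25, limma adjusted p 0.047), against 4.35% of all tested genes. That call was lost without pairing, where 11 of all tested genes were called against 606 in the main fit.

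**Figure D5:**
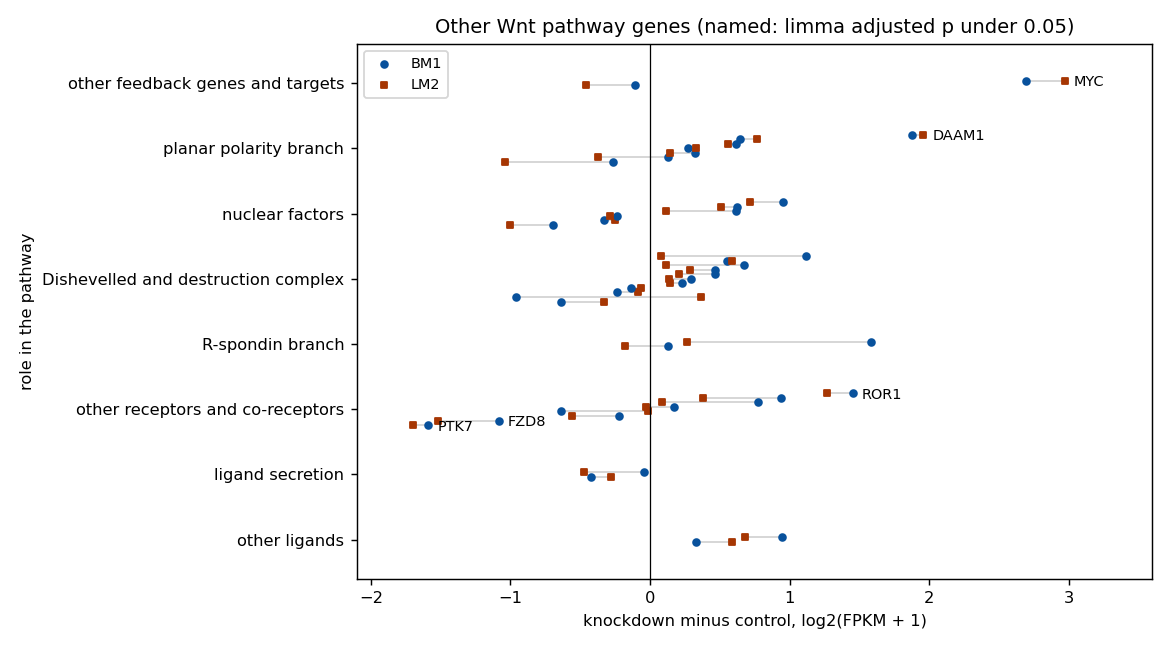
Knockdown minus control on the log2(FPKM + 1) scale for the 40 other tested pathway genes, grouped by role, with a circle for BM1 and a square for LM2 joined by a line. The 5 genes with a limma adjusted p under 0.05 are named, and MYC (2.69 and 2.97) lies farthest to the right.

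The genes whose pattern over the 4 libraries was closest to the members with the largest difference in each direction were listed, by Euclidean distance of centred log2(FPKM + 1) values among all tested genes. For LRP6 they were PPP4R3B (distance 0.011), HIVEP2 (0.066) and USP9X (0.068). PPP4R3B was at 10.4 and 33.0 FPKM in the BM1 pair and 15.9 and 26.4 FPKM in the LM2 pair. For DKK3 they were TRIM8 (0.035), CNBD2 (0.041) and FCHO1 (0.081). TRIM8 was at 66.5 and 34.0 FPKM in the BM1 pair and 29.8 and 29.1 FPKM in the LM2 pair. Each distance rests on 4 values per gene.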

How the data were processed

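Polyadenylated RNA of 4 cultures was sequenced as stranded paired-end libraries, per the labels' protocols. The authors deposited FPKM values per gene. STAR 2.5.3a, Cuffdiff 2.2.1 and GRCh37 are named in the submitters' processing notes, with no role or annotation release given there. Of 20369 entries, 40 under 3 repeated gene IDs were left out. Depth was read from 1623 genes with 1 transcript in GENCODE 29, taking 1 step of FPKM times length as 1 fragment. Of the products up to 10 fragments, 36.6% to 45.0% lay within 0.02 of a whole number, so count models were not used.

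Genes with a mean of at least 1 FPKM (13928) were fitted with limma 3.58.1 (R 4.3.3) on log2(FPKM + 1), with terms for treatment and cell line. Both libraries of a line come from the same cell line, so the line pairs them. Two-sided p-values were adjusted over all tested genes (Benjamini-Hochberg). The residual of this fit is how far the knockdown change differs between the lines, not a spread between replicates. The test draws it towards a variance taken from all tested genes (7.7 prior degrees of freedom), so standard errors lie near a shared value. P-values and standard errors rest on these 4 samples and do not measure a spread between replicate cultures. In bulk samples fewer cells and less RNA per cell cannot be told apart. The fit was tested on simulated data. The members and lists were chosen with earlier results of these data known. All members are named, with pathway genes that were called or were among the 3 with the largest knockdown difference in their role. LRP5 and CTNNB1 were added outside this rule with their values seen. Alternatives were pseudocounts of 0.1 and 0.5, no filter, median-ratio size factors, quantile normalization, no pairing, each library left out, a 1.5-fold rule, and, added after seeing the data, a fit with the GC and length trend taken out.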

Additional observations from a re-analysis of the deposited data

Results flagged for a closer look

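In 3 of the 10 genes the knockdown difference had opposite signs in the 2 lines, each from 1 pair of libraries, and the difference between the lines was not tested. The LM2 difference minus the BM1 difference was -1.5 for WNT7B (0.26 in BM1 and -1.24 in LM2), -1.0 for FZD6 (0.86 and -0.14) and -0.46 for WNT5A (0.08 and -0.38), all on the log2(FPKM + 1) scale.

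The difference between the lines also had opposite signs in control and knockdown libraries for some genes, again untested. The knockdown value minus the control value was -1.5 for WNT7B, -1.0 for FZD6, -0.89 for LRP6 (0.57 between controls and -0.32 between knockdowns) and 0.52 for FZD2 (-0.29 and 0.23). For FZD8, a receptor outside the 10 genes, it was -0.44 (0.27 and -0.16). These values use the same 4 libraries as the knockdown differences, so they are not further evidence.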

How the results depend on the processing

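The count of members called was 0 in both tests under each alternative that kept all libraries, also without the pairing by line (no replicate block). At a limma unadjusted p under 0.05 it was 1 or 2. Over all tested genes the knockdown test called 762 in the main fit and 27 with a pseudocount of 0.1. It called 0 without the filter, with quantile normalization and without the pairing. The line test called 606 in the main fit, 0 without the filter and 11 without the pairing. Where few or no genes were called, a member count of 0 was nearly fixed in advance and says nothing about the members. Other pathway genes called in the knockdown test went from 5 to 1 with a pseudocount of 0.1. They went to 0 without the filter, with quantile normalization and without the pairing, as did the calls over all tested genes. Pathway genes called between lines went from 1 to 0 under the same settings. Fits with a library left out leave 1 library in a group, so their calls are not counted here. Members past 2-fold in BM1 went from 1 to 2 with pseudocounts of 0.1 and 0.5, size factors and quantile normalization, to 0 with the GC and length trend removed and to 5 at 1.5-fold. In LM2 the count was 3 at 1.5-fold. Between controls it was 5 at 1.5-fold and 1 with the trend removed, and between knockdowns 1 with a pseudocount of 0.1 and 3 at 1.5-fold. The share of all tested genes was not computed for these size rules under the alternatives, so the counts cannot be set against a background. The cause was not tested.

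Some differences turned sign. The difference between lines was 0.029 for FZD2 with quantile normalization, and 0.047 for FZD2 and -0.079 for LRP6 with the trend removed. With 1 library left out, knockdown differences ranged from -0.47 to 0.17 (WNT5A), -0.40 to 0.79 (WNT5B), -1.10 to 0.081 (DKK3) and -0.039 to 0.76 (FZD6). Without a change of sign they ranged from -0.92 to -0.062 (WNT7B), -0.71 to -0.012 (FZD7), -0.51 to -0.22 (FZD2) and 0.037 to 0.56 (AXIN2). Differences between lines ranged from -0.73 to 0.51 (WNT7B), -0.76 to 0.17 (DKK1), -0.34 to 0.28 (FZD2), -0.13 to 0.74 (FZD6), -0.66 to 0.91 (LRP6), -0.71 to 0.81 (FZD8), -1.26 to 0.70 (DAAM1) and -1.85 to 1.12 (MYC), and without a change of sign from 0.13 to 0.59 (AXIN2), 0.21 to 0.60 (WNT5A), 0.18 to 0.76 (FZD7), -1.19 to -0.21 (DKK3) and 0.84 to 1.20 (WNT5B). The knockdown differences of LRP6 and DKK1 stayed above 0, from 0.85 to 1.42 and from 0.62 to 1.03. Over the alternatives that kept all libraries their limma adjusted p ranged from 0.059 to 0.38 and from 0.10 to 0.42. A fit on 3 libraries cannot keep the pairing, so part of the knockdown difference enters the line difference and the reverse. For MYC the knockdown difference was 2.83, and the line differences were -0.51 between controls and -0.23 between knockdowns. The ranges and sign turns with 1 library left out therefore do not measure how stable a difference is.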

Other observations

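Of the other pathway genes, 14 had a mean under 1 FPKM and were not tested. In the knockdown library of both lines 4 of them were higher (WNT2B, WNT10B, LGR5 and RNF43) and 6 lower (WNT10A, FZD3, TCF7, KREMEN1, KREMEN2 and SP5). The other 4 were mixed. The shares among all genes under 1 FPKM were not computed, so these counts cannot be set against a background. LGR5 and RNF43, chosen after their values were seen, are known targets of the beta-catenin branch that act on R-spondin signalling. LGR5 was at 0.0693 and 1.09 FPKM in the BM1 pair and 0.0783 and 1.34 FPKM in the LM2 pair. RNF43 was at 0.520 and 2.28 FPKM in the BM1 pair and 0.0515 and 0.734 FPKM in the LM2 pair. SP5, also known as such a target, lay in the opposite direction, at 1.5 and 0.648 FPKM in the BM1 pair and 1.15 and 0.379 FPKM in the LM2 pair. The receptor of DKK proteins KREMEN1 was at 1.04 and 0.414 FPKM in the BM1 pair and 0.674 and 0.170 FPKM in the LM2 pair.

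The LGR5 value stands for about 2.16 fragments per kilobase in the BM1 control and 3.25 in the LM2 control. The RNF43 value in the LM2 control stands for about 2.14, so the ratios of both genes are imprecise. LGR5 overlaps TSPAN8 on the opposite strand, which was at 4.41 and 22.3 FPKM in the BM1 pair and 0.0793 and 0.924 FPKM in the LM2 pair. RNF43 overlaps BZRAP1-AS1 on the opposite strand and SUPT4H1 on the same strand. BZRAP1-AS1 was at 1.89 and 1.59 FPKM in the BM1 pair and 0.00317 and 1.17 FPKM in the LM2 pair. SUPT4H1 was at 76.0 and 70.6 FPKM in the BM1 pair and 65.2 and 61.7 FPKM in the LM2 pair. The part of these neighbours in the values was not tested.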
